A study of Mus musculus with 4 samples.

Results

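The nuclear genes of mitochondrial oxidative phosphorylation (OXPHOS) were followed across the sensory and the surrounding epithelial cells of the newborn mouse inner ear. They were taken by symbol as every gene of the table starting with Nduf, Cox4 to Cox8, Uqcr, Sdha to Sdhd or Atp5, together with *Cyc1* and *Cycs*, which gave 85 genes of the 12814 measured. Of these, 74 encode subunits of the respiratory complexes and ATP synthase or cytochrome c, and 11 are assembly factors or carry a matching symbol. *Cox4nb* is in the second set by its symbol only, since its product is a subunit of a membrane protein insertion complex of the endoplasmic reticulum, and *Atp5l2* is annotated as a pseudogene. The genes lie on 19 chromosomes.

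The cells came from *Atoh1/nGFP* mice on a C57BL/6 background at postnatal day 1. All 4 groups carried this transgene, in which a hair cell enhancer of *Atoh1* drives a nuclear green fluorescent protein, and no group was treated. Cochlear hair cells (HCs), cochlear epithelial non-sensory cells (ENSCs), vestibular HCs and vestibular ENSCs were separated by flow cytometry, HCs as cells with the fluorescent protein and the epithelial surface protein CD326, and ENSCs as cells with CD326 alone. The ears of several mice were pooled for a sample. ENSCs are thus a mixture of supporting cells and other epithelium, and HCs are defined by the reporter and CD326 together. RNA was amplified before sequencing. The table held 1 library for each group, so no value has a replicate error. No test between groups was made, and every ratio below compares 2 libraries. In bulk samples of this kind, fewer cells of a type and less RNA per cell cannot be told apart.

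OXPHOS couples the oxidation of NADH and succinate to the synthesis of ATP. Complexes I and II pass electrons to coenzyme Q, complex III passes them through cytochrome c to complex IV, which reduces oxygen, and ATP synthase uses the proton gradient built by complexes I, III and IV. A few subunits are made from mitochondrial DNA and all the others from nuclear genes, many of which have promoters bound by NRF1, ETS family factors and YY1. HCs hold dense mitochondria below their mechanosensory bundle and are known for a high demand for ATP and calcium buffering.

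The values are a quantile-normalized signal, which started as reads per gene and which has a floor of 20. The 4 columns hold the same set of values, each summing to 7830343 with a median of 120, so depth is unknown and a shift of a whole library cannot be seen. In each column the lowest values up to a certain height were ordered by the gene's level in the other columns, as values tied before normalization would be. The tops of these tied ranges were 24.25 in cochlear HCs, 22.75 in cochlear ENSCs, 30.5 in vestibular HCs and 20 in vestibular ENSCs. A ratio against a signal in a tied range is given as "at least", against the top of that range. Counts of genes past a fold use the ratio of the deposited signals, and where raising tied signals to the top of their range alters a count that is said beside it. Of the 85 genes, 75 were above the floor in all 4 libraries and none was at the floor in all of them.

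The sorted cells were checked against marker genes. All 8 HC markers exceeded 3-fold in favour of HCs in each organ, and *Pou4f3*, a transcription factor of HCs, had 2198.75 in cochlear HCs, 55.25 in cochlear ENSCs, 2489.5 in vestibular HCs and 20 in vestibular ENSCs. Lists of other cells differed between the groups. The 6 supporting cell markers summed to 9479.75 in cochlear HCs, 91484.25 in cochlear ENSCs, 9755.25 in vestibular HCs and 22926.5 in vestibular ENSCs, and *Sparcl1* and *Tectb* among them were not lower in vestibular HCs than in vestibular ENSCs. The 2 epithelial markers summed to 7019.75, 8229, 1317.75 and 10819.25 in the same order, with *Cdh1* at 178.5 in vestibular HCs and 3308.25 to 6003 in the other libraries. The 5 mesenchyme markers found of 6 summed to 295.25, 3570.75, 197.25 and 1807.75. *Col1a2* and *Dcn* made most of the cochlear ENSC sum, and *Col1a1*, *Col3a1* and *Tbx18* were higher in vestibular than in cochlear ENSCs, the median over the 5 being 58.25 in cochlear and 443.25 in vestibular ENSCs. *Tbx18* had the floor value in each cochlear library. The 3 neuron markers found of 5 summed to 5667, 171, 6681.75 and 60, and the 3 glia markers to 661, 504, 164.75 and 1263.5, of which *Sox10* made 1183 in vestibular ENSCs. The neuron markers were thus high in the same libraries as the HC markers. To leave out neuronal cells with the fluorescent protein, the paper required CD326 of HCs. Whether HCs or neurons gave this signal was not tested. Of the macrophage markers only *Cd68* was listed, between 20 and 24.75, and no endothelial or erythroid marker of the lists was in the table. The part of these cells in the differences below was not tested.

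What the OXPHOS genes share beyond their names was first looked for in their promoters. RefSeq promoters of the GRCm38.p6 build, 250 bases before to 50 after a gene's start, were listed for 71 of the 85 genes, 77 promoters in all. The NRF1 motif GCGCA, any base, GCGC, read on both strands like the other motifs, was found in 17 of them (22.1%), against 4.60% of all 32851 promoters and 9.61% of the 12096 promoters of genes in the expression table. CCGGAAG, the core bound by ETS factors such as GABPA, was in 19 (24.7%), against 8.86% and 16.2%. AAGATGGC, the core of the YY1 motif, was in 12 (15.6%), against 2.75% and 4.18%, and no match of 1 motif overlapped that of another. A match is a string of letters and not a measured binding site. Below are 3 promoter windows of 50 bases with the NRF1 match in capitals, from *Ndufaf4* and *Atp5h*, which were over 3-fold higher in vestibular HCs than ENSCs, and from *Ndufa11*, which was over 3-fold lower there. They lie at chr4:24897950-24897999 on the plus strand, chr11:115420031-115420080 on the minus strand and chr17:56717682-56717731 on the plus strand, upstream of the start.
Ndufaf4: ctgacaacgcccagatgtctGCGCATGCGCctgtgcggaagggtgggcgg
Atp5h: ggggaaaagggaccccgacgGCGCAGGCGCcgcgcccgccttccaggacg
Ndufa11: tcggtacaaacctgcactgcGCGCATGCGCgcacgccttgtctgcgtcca
The windows show the same motif upstream of genes on both sides. Of the genes at least 3-fold higher in vestibular HCs that had a listed promoter, 3 of 6 held it, and of those at least 3-fold lower, 3 of 10.

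In the cochlea the OXPHOS genes stood at about the same signal in HCs and ENSCs. Their median log2 ratio of HCs to ENSCs was 0.01, against 0 over all genes, and 57 of the 85 (67.1%, against 46.0% of all genes) lay within 1.5-fold. A ratio of at least 3 was reached by 1 gene upward and 0 downward (1.18% of the 85), where 8.39% of all genes passed it upward and 9.2% downward, 17.6% in all. In the vestibular system the median was -0.13, against 0.00 over all genes, and 28 (32.9%, near the 34.5% of all genes) lay within 1.5-fold. At least 3-fold higher in vestibular HCs were 9 genes (13.8% of all genes were) and at least 3-fold lower were 12 (14.3% of all genes), together 24.7% of the 85 and 28.1% of all genes. For 4 of these 12, *Ndufa3*, *Ndufa7*, *Ndufs8* and *Uqcrq*, the vestibular HC signal lay in its tied range. With tied signals at the top of their range *Ndufs8* and *Uqcrq* were no longer past 3-fold, which left 10 genes (12.8% of all genes). The vestibular share was thus near that of the whole table.

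**Figure D1:**
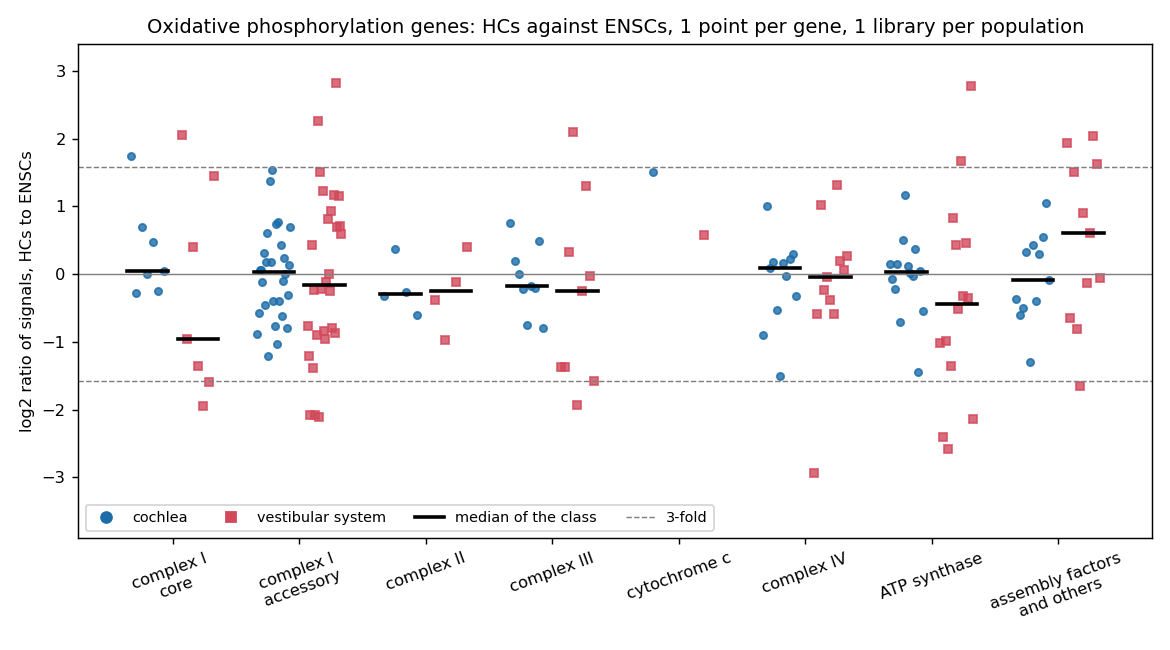
log2 ratio of HC to ENSC signal for each OXPHOS gene (points), by complex, in the cochlea (blue circles) and the vestibular system (red squares); black bars are class medians, dashed lines mark 3-fold, and each point compares 2 single libraries. The cochlear points lie within 3-fold except for 1 gene of the complex I core, whereas the vestibular points spread to both sides in every class with more than 4 genes.

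Between the 2 HC libraries the genes were closer than between the 2 ENSC libraries. Cochlear and vestibular HCs were within 1.5-fold for 52 of the 85 genes (61.2%, against 60.4% of all genes), with a median log2 ratio of cochlea to vestibular system of -0.11. Cochlear and vestibular ENSCs were within 1.5-fold for 30 (35.3%, against 45.3% of all genes), with a median of -0.23. Between HCs, 3 genes passed 3-fold toward the cochlea and 5 toward the vestibular system (9.41% in all, where 4.21%, 5.09% and, together, 9.3% of all genes did). Those 3 were *Ndufa12*, *Ndufa5* and *Ndufaf2*, all with a vestibular signal in its tied range, and with tied signals at the top of their range *Ndufa12* alone passed (3.26% of all genes). Between ENSCs, 7 passed toward the cochlea and 9 toward the vestibular system (18.8% in all, where 7.8%, 7.94% and, together, 15.7% of all genes did). In all, 32 of the 85 (37.6%) were at least 3-fold apart in 1 or more of the 4 contrasts, where 42.1% of all genes were, and 30 (35.3%, where 39.9% of all genes were) with tied signals at the top of their range. The summed signal of the 85 genes was 24208 in cochlear HCs, 24588 in cochlear ENSCs, 27027.5 in vestibular HCs and 37143.25 in vestibular ENSCs, and without *Atp5b* it was 22152.5, 22424.25, 24803 and 25323.5, so that 1 gene made most of the vestibular ENSC excess.

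The 7 nuclear core subunits of complex I carry its flavin and iron-sulfur clusters. *Ndufs1* (ENSMUSG00000025968, chr1:63190170-63223396 of NCBIM37, minus strand, 19 exon blocks), which encodes the largest of them, had a signal of 1003 in cochlear HCs, 299.75 in cochlear ENSCs, 879 in vestibular HCs and 210.5 in vestibular ENSCs. Both HC libraries were above both ENSC libraries, 3.35-fold in the cochlea and 4.18-fold in the vestibular system, and it was the only OXPHOS gene past 3-fold in the cochlea. No stretch of 50 bases of its longest protein-coding transcript occurs elsewhere in the genome. *Ndufv2*, a core subunit of the same NADH-oxidizing module, had 317.5, 307.5, 392.25 and 143.25 in the same library order, with a vestibular log2 ratio of 1.45 and a cochlear one of 0.05.

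Other core subunits were lower in vestibular HCs. *Ndufv1*, which binds NADH and the flavin, had 60, 71, 37.5 and 112.75, and was 3.01-fold lower in vestibular HCs than ENSCs. *Ndufs8*, which carries iron-sulfur clusters, had 28.25, 20.25, 23.25 and 89.75, which makes it at least 2.94-fold lower. The exons of *Ndufv1* and *Ndufs8* hold 55.5% and 57.6% G and C, and those of *Ndufv2* and *Ndufs1* 42.7% and 45.1%.

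The 28 accessory subunits of complex I surround this core. The highest cochlear ratio among them was that of *Ndufab1*, the acyl carrier protein, with 205, 70.25, 237 and 101.25 (log2 ratios of 1.55 and 1.23). *Ndufa8* was next in the cochlea at 226.5, 87.5, 145.25 and 51 (1.37 and 1.51). For *Ndufab1*, 12.6% of the 50-base stretches occur elsewhere in the genome. With *Ndufs1* and the assembly factor *Sdhaf1* these made 4 genes whose deposited ratio was 2 or more in favour of HCs in each organ (9.72% of all genes), and 3 without *Sdhaf1*, whose cochlear ENSC signal was in the tied range, with tied signals at the top of their range (9.53%). On the other side *Ndufa7* and *Cox7a2l* were the 2 genes at 2-fold or more below ENSCs in each organ (9.96% of all genes, and 9.26% with tied signals at the top).

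In the vestibular system *Ndufc1*, a small subunit of the membrane arm, had the highest OXPHOS ratio, with 407, 404.75, 461.25 and 65.25. Its signal was alike in 3 libraries, and vestibular ENSCs stood 7.07-fold below vestibular HCs. Of the stretches of *Ndufc1*, 13.25% occur elsewhere in the genome. *Ndufa6* had 156.5, 102.75, 253.5 and 52.75, 4.81-fold higher in vestibular HCs than ENSCs. *Ndufa7*, *Ndufa11* and *Ndufa3* were on the other side. *Ndufa7* had 25, 58, 24 and 103.75, at least 3.4-fold lower in vestibular HCs, and *Ndufa3* had 29.75, 40.75, 23.75 and 100, at least 3.28-fold lower. *Ndufa11*, of the membrane arm, had 22.25, 21.25, 33.75 and 142.75, so that the vestibular ENSC library stood above the other 3.

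Several accessory subunits differed between the organs in both cell types. *Ndufa12* had 191.25 and 182.5 in cochlear HCs and ENSCs but 27 and 20 in the vestibular libraries, at least 6.27-fold lower in vestibular than in cochlear HCs and at least 9.13-fold lower in vestibular than in cochlear ENSCs. Its assembly factor and paralogue *Ndufaf2*, which holds its place during assembly, had 89.75, 118.75, 24.25 and 26.5, at least 2.94-fold lower in vestibular HCs and 4.48-fold lower in vestibular ENSCs. Both genes of this pair were thus low in both vestibular libraries. *Ndufb6* went the same way with 204.25, 151.25, 68.5 and 35.75, and *Ndufb8* with 125.25, 134.5, 67 and 29.75. *Ndufb3*, at 248.75, 509.75, 187.75 and 106.25, and *Ndufa5*, at 65.25, 57.5, 20 and 37.25, were also lower in both vestibular libraries than in the cochlear library of the same cell type. Higher in both vestibular libraries were *Ndufb11*, with 40.25, 68.5, 121.5 and 237, *Ndufs6*, with 49.25, 44.75, 197 and 119.75, and *Ndufa13*, with 50.25, 54.25, 113.25 and 297. For *Ndufa12* and *Ndufb11*, 26.5% and 15.4% of their 50-base stretches occur elsewhere in the genome, and 39.0% of the exon bases of *Ndufb6* and 30.2% of those of *Ndufa13* lie in exons of a gene on the opposite strand, so that their reads may be shared.

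Complex II, the succinate dehydrogenase that also serves the TCA cycle, had no gene past 3-fold in any contrast. *Sdha*, the flavoprotein, had 848, 1061, 1067 and 1397.25, and the iron-sulfur subunit *Sdhb* 100, 77.5, 60.75 and 119.75. The membrane anchor *Sdhd* had 733.75, 1112, 846.75 and 640.75. None of the 4 subunits reached 2-fold in either organ, and their log2 ratios ran from -0.60 to 0.37 in the cochlea and from -0.98 to 0.40 in the vestibular system.

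In complex III, 9 genes divided. *Uqcrb*, a small subunit near the coenzyme Q site, had 419.75, 488.5, 1346.5 and 315.5, and the Rieske iron-sulfur protein *Uqcrfs1* 656.25, 760, 929.5 and 378.75, 4.27-fold and 2.45-fold higher in vestibular HCs than ENSCs. For *Uqcrb*, 61.5% of the 50-base stretches occur elsewhere in the genome, and its signal is uncertain for that reason, while *Uqcrfs1* has none. The core protein *Uqcrc1* had 53.5, 89.75, 49.75 and 190.75, and was 3.83-fold lower in vestibular HCs than ENSCs. *Uqcrq* had 29, 50.25, 21.75 and 65.25, at least 2.14-fold lower. *Cyc1*, the cytochrome c1 that reduces cytochrome c, had 152.75, 90.75, 92.5 and 239.5, and stood highest in cochlear HCs and vestibular ENSCs. Cytochrome c itself, *Cycs*, had 87.5, 30.75, 31.25 and 21, highest in cochlear HCs and 2.85-fold above cochlear ENSCs, with 38.5% of its stretches found elsewhere.

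The 11 genes of complex IV include the OXPHOS gene whose vestibular ratio lay furthest from 0. *Cox4i1* (ENSMUSG00000031818, chr8:123192190-123198109 of NCBIM37, plus strand, 5 exon blocks), the broadly expressed isoform of a subunit needed for assembly, had 119.75, 222.75, 142.25 and 1085.25. Vestibular ENSCs stood above the other 3 libraries, 7.63-fold over vestibular HCs and 4.87-fold over cochlear ENSCs. Its neighbour *Cox4nb* starts 177 bases away on the other strand and had 216.5, 172.75, 178 and 311.25, with a vestibular log2 ratio of -0.81 against -2.93 for *Cox4i1*. *Cox5a* had 47, 23.5, 87 and 130.5, with both vestibular libraries above both cochlear ones, though 38.7% of its exon bases lie in exons of a gene on the opposite strand. *Cox6c* had 292.25, 825.5, 268 and 349.75 and the lowest cochlear ratio of the OXPHOS genes (-1.50), and *Cox7b* 437, 444, 903.25 and 363.

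Where a complex IV subunit has isoforms, the broadly expressed one was in the table. *Cox6a1* had 382.75, 339.5, 503.75 and 592.75, *Cox6b1* 280.75, 404.75, 423.25 and 434, *Cox7a2* 138.5, 123.75, 140.5 and 212.25, and *Cox8a* 215, 175.75, 306 and 293. All 4 stayed within 1.6-fold between HCs and ENSCs of an organ. *Ndufa4*, a complex IV subunit once assigned to complex I, had 510.5, 641.25, 751 and 624.25 and per kilobase of exon the highest signal of complex IV in the 3 libraries other than vestibular ENSCs, 1038, 1303 and 1526. There it had 1269 per kilobase, below the 1598 of *Cox4i1*. The tissue-restricted isoforms of these subunits, *Cox4i2*, *Cox6a2*, *Cox6b2*, *Cox7a1*, *Cox8b*, *Cox8c* and *Ndufa4l2*, were not analysed here.

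Per kilobase of exon, a subunit of ATP synthase had the highest OXPHOS signal of any library, 2790 in vestibular ENSCs. It was *Atp5b* (ENSMUSG00000025393, chr10:127520329-127527447 of NCBIM37, plus strand, 9 exon blocks), the catalytic beta subunit, which had 2055.5, 2163.75, 2224.5 and 11819.8, a level that differed by less than 1.1-fold over 3 libraries and was 5.31-fold higher in vestibular ENSCs than in vestibular HCs. The alpha subunit *Atp5a1* had 2018.25, 1813.5, 2043.25 and 4121.5, 2.02-fold. The delta subunit *Atp5d* had 87, 78.25, 90.25 and 538.75, 5.97-fold. Of the 5 subunits of the F1 head (alpha to epsilon), a grouping chosen after the values were seen, all were lower in vestibular HCs than in vestibular ENSCs, with a median log2 ratio of -1.36, while in the cochlea their median was -0.07. Over the whole table, 6418 of 12814 genes were lower in vestibular HCs. The 9 subunits of the membrane part and the stalks had a vestibular median of 0.43, and 4 of them were lower in vestibular HCs.

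In that second part of the enzyme, *Atp5o*, which ties the stalk to the head, had 71.75, 104.75, 41.5 and 182.25, 4.39-fold lower in vestibular HCs, with 31.2% of its exon bases in genes of the opposite strand and 20.5% of its stretches elsewhere. *Atp5h* of the stalk had 527.75, 519, 746.75 and 235, 3.18-fold higher in vestibular HCs. *Atp5l* had 21.25, 20.5, 160 and 23.25 and its annotated pseudogene copy *Atp5l2* 20, 25.75, 88 and 23, both high in vestibular HCs alone. For these 2 near-identical genes 89.4% and 79.5% of the 50-base stretches occur elsewhere in the genome, and for *Atp5h* 59.6%, so that the 3 values are uncertain. Of the genes for the proton-carrying c subunit, *Atp5g1* had 148.25, 66.25, 430.75 and 320.75 and *Atp5g3* 695, 636.75, 625.25 and 896.75, the former with both vestibular libraries highest, and *Atp5g2* was not analysed here. For *Atp5g1*, 29.4% of the 50-base stretches occur elsewhere in the genome. *Atp5k* had 20, 54.75, 31 and 39.75, at least 2.26-fold lower in cochlear HCs than ENSCs.

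**Figure D2:**
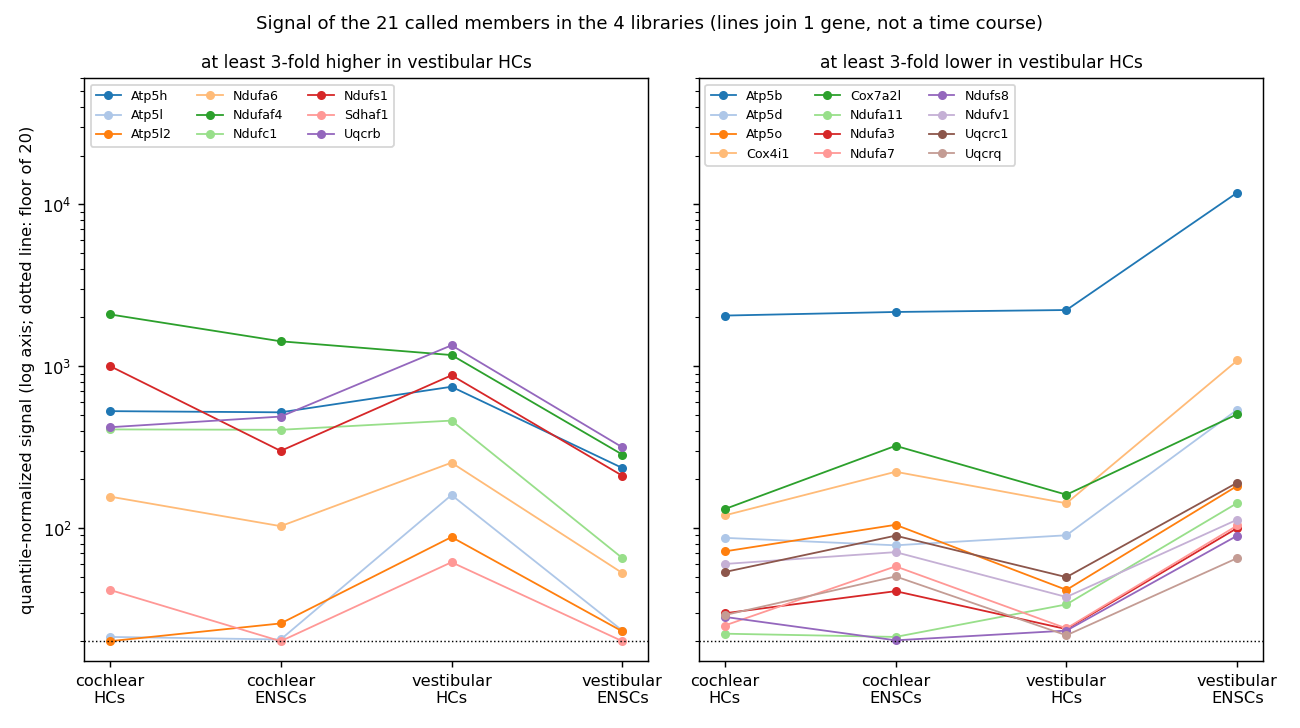
Quantile-normalized signal (log axis) in the 4 libraries of the 9 OXPHOS genes at least 3-fold higher (left) and the 12 at least 3-fold lower (right) by their deposited ratio in vestibular HCs than in vestibular ENSCs, of which Ndufa3, Ndufa7, Ndufs8 and Uqcrq are in the tied range of vestibular HCs; lines join the values of 1 gene, and the dotted line is the floor of 20. On the right each gene is highest in vestibular ENSCs, as Atp5b is at 11819.8 against 2055.5 to 2224.5 in the other libraries.

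Among the assembly factors, *Ndufaf4*, which acts in the assembly of complex I, had 2090.5, 1425.5, 1172.25 and 284.5. It was 4.12-fold higher in vestibular HCs than in vestibular ENSCs, and the ENSC value was the one apart. *Sdhaf1*, which helps to insert the iron-sulfur clusters of *Sdhb*, had 41.5, 20, 61.5 and 20, above ENSCs by at least 1.82-fold in the cochlea and 3.08-fold in the vestibular organs, but 65.9% of its exon bases lie in exons of a gene on the opposite strand. *Sdhaf2*, needed to attach the flavin of *Sdha*, had 109.25, 116, 105 and 109.75, within 1.5-fold everywhere. *Cox7a2l*, which joins complexes III and IV into supercomplexes, had 131, 322.25, 160.75 and 505.25, with HCs 2.46-fold and 3.14-fold below ENSCs, the lowest ratio of this set in both organs, with 54.3% of its stretches found elsewhere.

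The vestibular ratios of the OXPHOS genes were then set against the GC content of their exons, which ran from 39.0% to 62.8% with a median of 49.98% (48.8% over all genes). Their exons were short, with a median merged length of 1363 bases against 3819. Across the 85 genes the vestibular log2 ratio had a Spearman's rho of -0.41 with GC content, and across the 10358 genes above the floor in both libraries -0.40. The cochlear ratio had 0.03 and -0.04. Cochlear against vestibular HCs had -0.05 and 0.02, and cochlear against vestibular ENSCs -0.44 and -0.45. These are descriptions across genes measured in the same libraries, and genes are not replicates. The 2 contrasts with a GC trend share the vestibular ENSC library.

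In 4 bins of the OXPHOS genes by GC content, 21 or 22 genes each from low to high, the median vestibular log2 ratio was 0.83, -0.12, -0.81 and -0.88. All genes of the same GC ranges had 0.41, 0, -0.30 and -0.75, so that the whole table showed the same order. The 9 genes at least 3-fold higher in vestibular HCs had a median GC content of 45.3%, and the 12 at least 3-fold lower 54.0%. Below, 60 bases of coding sequence are shown for 2 genes of each side, with G and C in capitals. They were picked as the 2 protein-coding higher genes lowest in exonic GC content and the 2 lower genes highest in it. Each stretch is the one whose GC content is nearest to that of the gene's exons. In NCBIM37 the stretches lie at chr4:24825752-24825811 on the plus strand, chr13:67001689-67001748 on the minus strand, chr17:56857289-56857348 and chr10:79606588-79606647, both on the plus strand.
Ndufaf4: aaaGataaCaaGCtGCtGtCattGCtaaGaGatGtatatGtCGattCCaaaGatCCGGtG
Uqcrb: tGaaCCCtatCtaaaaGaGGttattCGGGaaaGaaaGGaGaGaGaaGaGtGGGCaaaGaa
Ndufa11: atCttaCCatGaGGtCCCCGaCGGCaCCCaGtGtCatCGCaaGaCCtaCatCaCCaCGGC
Atp5d: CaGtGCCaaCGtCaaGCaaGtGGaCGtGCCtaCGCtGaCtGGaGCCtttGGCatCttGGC
*Ndufaf4* and *Uqcrb*, higher in vestibular HCs, hold 24 and 25 G or C bases here, and *Ndufa11* and *Atp5d*, lower in vestibular HCs, hold 35 each. That difference follows from how the genes were picked. *Sdhaf1*, on the higher side with 58.4% G and C, and *Atp5b*, on the lower side with 45.5%, lie the other way. All 4 genes shown passed below 3-fold once the GC trend was taken out, while 7 of the 9 higher and 4 of the 12 lower genes stayed past it.

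**Figure D3:**
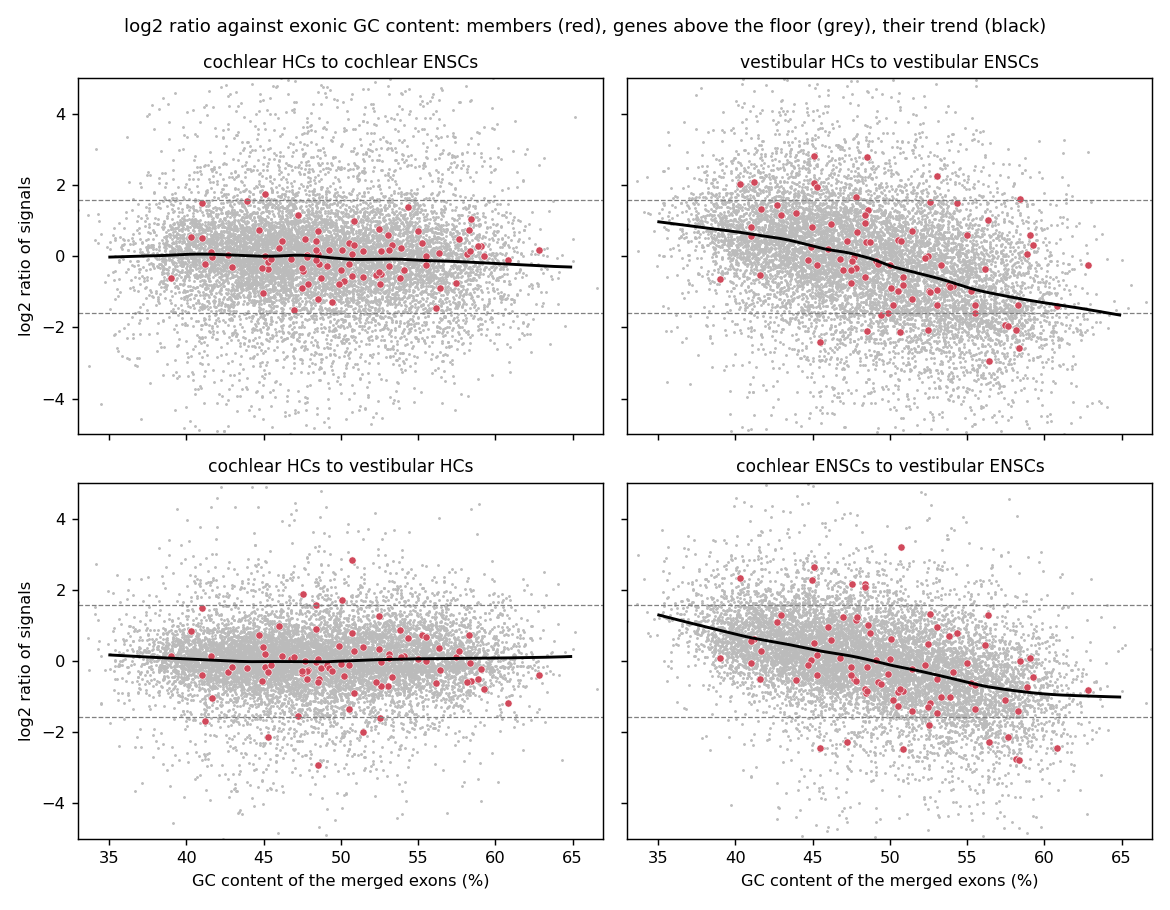
log2 ratio (vertical axis) against the GC content of the merged exons in percent (horizontal axis) for the 4 contrasts; red points are the 85 OXPHOS genes, grey points the genes above the floor in both libraries, black lines their local regression, and dashed lines 3-fold. The line falls with GC content in the 2 right-hand panels, which share the vestibular ENSC library, and is nearly flat in the 2 left-hand ones.

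The trend was removed by a local regression of each contrast's log2 ratios on GC content over all genes above the floor. Of the vestibular OXPHOS genes, 11 were then at least 3-fold higher and 4 lower (14.6% and 9.99% of all genes were, 24.5% in all), their rho with GC content was -0.03, and their median log2 ratio was -0.03, against 0.11 over all genes. The 4 that stayed at least 3-fold lower were *Atp5b* (-2.65), *Ndufa7* (-2.08), *Cox4i1* (-1.91) and *Atp5o* (-1.78). The other 8 of the 12 passed below 3-fold and kept their sign, among them *Ndufs8* (-0.82), *Uqcrc1* (-0.82) and *Ndufv1* (-0.65). The values of *Ndufa7* and *Ndufs8* use deposited vestibular HC signals within the tied range, so that both differences could be smaller. On the higher side *Ndufs1* stayed at 1.78, *Ndufc1* at 2.54 and *Ndufa6* at 2.88, while *Ndufaf4* (1.37) and *Uqcrb* (1.48) passed below. *Cox5b* (2.04), *Ndufa8* (2.29), *Ndufaf3* (1.85) and *Atp5sl* (2.08) passed above. For *Cox5b*, 62.7% of the 50-base stretches occur elsewhere in the genome, and its value is uncertain for that reason. The 5 subunits of the F1 head were still all below 0, as 45 of the 85 genes were, with a median of -1.07. Of the complex I core *Ndufs1* and *Ndufs8* kept their signs. With a trend on exonic length removed as well, 14 genes were at least 3-fold higher in vestibular HCs and 4 lower (14.8% and 10% of all genes, 24.8% in all). Between ENSCs with the GC trend alone removed, 9 genes then passed 3-fold toward the cochlea and 5 toward the vestibular system (6.85% and 5.58% of all genes, 12.4% in all), *Atp5b* at -2.73 and *Atp5d* at -1.93 among the latter.

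The vestibular HCs were also compared with the cochlear ENSCs, a contrast with no GC trend (rho of 0.03 over the 85 genes and -0.06 over all). These libraries differ in both organ and cell type, which cannot be told apart here. Of the OXPHOS genes 8 were at least 3-fold higher in vestibular HCs and 3 lower (12.9% in all, where 10.3%, 10.1% and, together, 20.4% of all genes passed), with a median log2 ratio of 0.04. With tied signals at the top of their range *Sdhaf1* (61.5 against 22.75) was no longer past 3-fold, and no other gene left the count. *Atp5b* was at 0.04, *Atp5d* at 0.21, *Ndufa11* at 0.67 and *Ndufaf4* at -0.28, on the other side of 0 from their ratio to vestibular ENSCs, the cochlear ENSC signal of *Ndufa11* being in its tied range. For *Ndufs8* both signals were in tied ranges, so that its ratio has no direction. *Cox4i1* was at -0.65. *Ndufs1* was at 1.55, so that it was higher in each HC library than in each ENSC library.

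**Figure D4:**
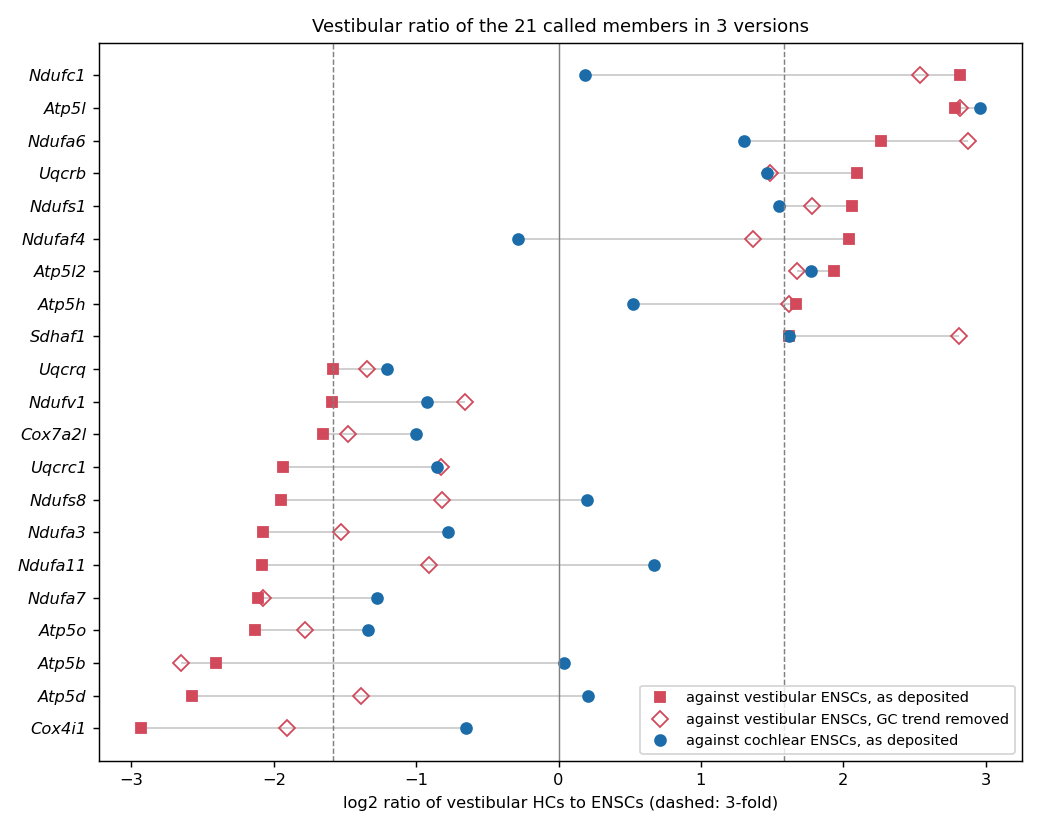
log2 ratio of vestibular HCs to ENSCs for the 21 OXPHOS genes at least 3-fold apart in the vestibular system, as deposited (red squares), with the GC trend removed (open diamonds), and against cochlear ENSCs in place of vestibular ENSCs (blue circles); dashed lines mark 3-fold. The blue circles of most of the lower genes lie closer to 0 than the squares, and those of Atp5b, Atp5d and Ndufa11 lie above 0. The blue circle of Ndufs8 divides signals that are both in tied ranges and has no direction.

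The cochlear and vestibular contrasts share no library. Their log2 ratios had the same sign for 53 of the OXPHOS genes (62.4%, near the 63.9% of all genes) and opposite signs for 29 (34.1%, against 27.0% of all genes), and 3 had a ratio of 0 in an organ. Pearson's r between the organs was 0.37 over the 85 genes and 0.60 over all 12814, as descriptions. The median of the vestibular minus the cochlear log2 ratio was -0.18, against -0.05 over all genes. *Ndufs1* was the only gene at least 3-fold apart in both organs.

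Genes around the respiratory chain were described from lists of their pathways. The 7 mitochondrially encoded subunits in the table had median HC to ENSC log2 ratios of -0.03 (cochlea) and -0.51 (vestibular system), and none was at least 3-fold apart between HCs and ENSCs. With the GC trend removed the vestibular median was -1.33, with 2 of the 7 at least 3-fold lower in HCs (9.99% of all genes). *mt-Nd5* of complex I had 72830.5, 55629.5, 62028.5 and 27044.8, and *mt-Co1* of complex IV 23927, 37323.8, 29920.2 and 55629.5. The 13 TCA cycle genes had medians of 0.06 and -0.40, with 1 at least 3-fold higher in HCs and 1 lower in the cochlea, and 2 higher and 1 lower in the vestibular system, beside 8.39% and 9.2% of all genes for the cochlea, then 13.8% and 14.3%. The ATP-forming succinyl-CoA ligase subunit *Sucla2* had 2378.5, 433.5, 2019.75 and 307, and its GTP-forming counterpart *Suclg2* 56.5, 290.75, 65.75 and 214.75, opposite to each other in both organs. *Idh3a*, the catalytic subunit of the NAD-dependent isocitrate dehydrogenase, had 1148, 431.5, 1066.25 and 161.75.

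The 17 glycolysis genes had a cochlear median of -0.28 and a vestibular one of -1.75, and in the latter organ 9 (52.9%, where 14.3% of all genes were) were at least 3-fold lower in HCs and 0 higher (13.8% of all genes). Their exons are rich in G and C (median 53.2%), and with the GC trend removed the vestibular median was -0.84 and the counts were 3 lower and 1 higher (9.99% and 14.6% of all genes). Lactate dehydrogenase *Ldha* had 400.75, 542.5, 393 and 2075.25, again with vestibular ENSCs apart. The 74 cytosolic ribosomal protein genes had medians of -0.24 and -1.01, with 28 (37.8%, where 14.3% of all genes were) at least 3-fold lower in vestibular HCs and 2 higher (13.8% of all genes). With the GC trend removed their vestibular median was -0.59 with 19 lower and 4 higher (9.99% and 14.6% of all genes were), and with length and GC trends removed -0.34 with 15 lower (10% of all genes). The 63 mitochondrial ribosomal protein genes had 0.15 and 0.47, with 9 higher (14.3%, near the 13.8% of all genes) and 3 lower (4.76%, where 14.3% of all genes were) in vestibular HCs. The 10 coenzyme Q genes had 0.15 and 0.51, the 10 complex IV assembly genes outside the symbols used here 0.12 and 0.22, the 9 genes of the pyruvate dehydrogenase list 0.13 and 0.07, and the 15 genes of mitochondrial import 0.07 and 0.27. With the GC trend removed the vestibular medians of these lists were 0.52, 0.64, -0.18 and 0.60 in the same order. That of the mitochondrial ribosomal protein genes was then 0.78, against 0.11 over all genes.

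Among 10 genes of ATP export and buffering, with medians of -0.05 and 0.12, the mitochondrial creatine kinase *Ckmt1* had 292.5, 22, 123 and 20, at least 12.9-fold higher in cochlear and at least 6.15-fold higher in vestibular HCs than in ENSCs. *Slc25a4*, the ATP/ADP carrier of the inner membrane, had 10905, 10581.5, 13361.5 and 6003. The 14 regulators of mitochondrial biogenesis had medians of -0.12 and -0.08. *Ppargc1a*, a coactivator that drives OXPHOS genes in many tissues, had 31.5, 367.5, 35.25 and 430, low in both HC libraries and high in both ENSC libraries. Its partner receptors went apart, *Esrrb* with 27, 72.75, 29.75 and 1234.75 and *Esrrg* with 332.25, 108, 646.25 and 44.5. *Nrf1* had 130.25, 98, 98 and 110, *Gabpa* 1488.5, 1690.5, 1372 and 1312, and *Yy1* 1171, 1280.25, 1158.25 and 1069.75, each within 1.5-fold over the 4 libraries.

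**Figure D5:**
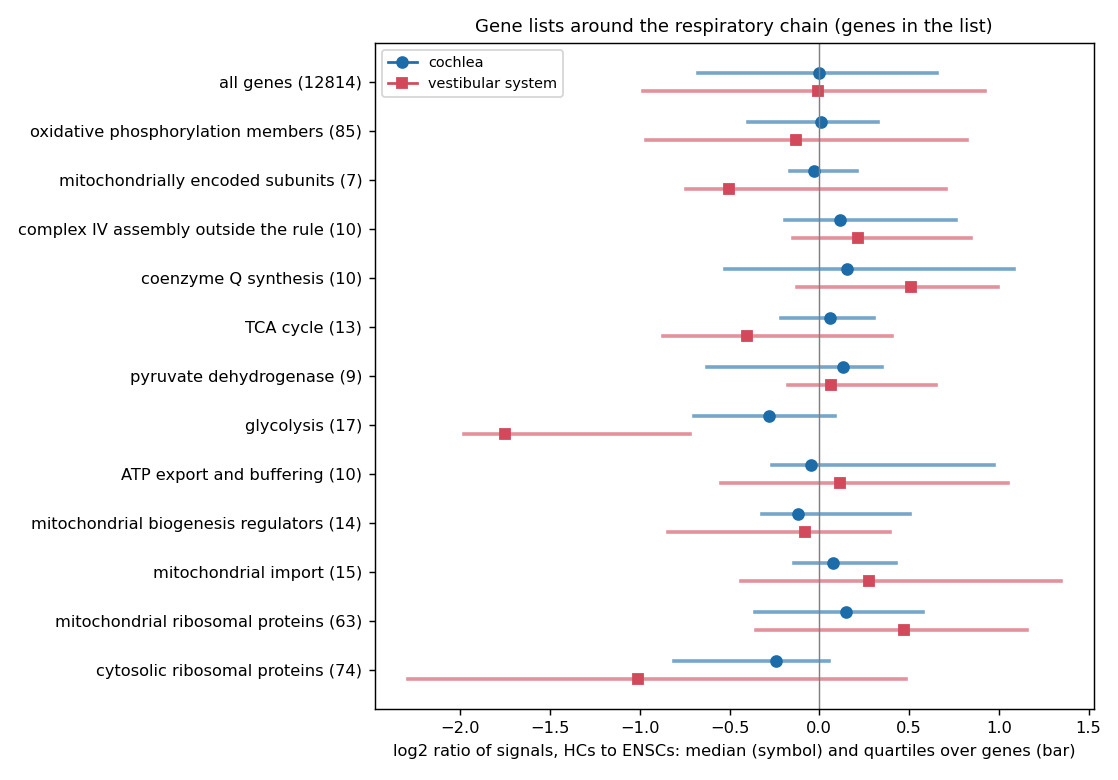
Median (symbol) and quartiles over genes (bar) of the log2 ratio of HC to ENSC signal for the OXPHOS genes and for lists around them, in the cochlea (blue circles) and the vestibular system (red squares), with the number of genes in brackets. The vestibular medians of the glycolysis and cytosolic ribosomal lists, -1.75 and -1.01, lie furthest from 0, and the OXPHOS median, -0.13, lies near it.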

How the data were processed

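RNA-seq was made from 4 sorted cell populations of newborn *Atoh1/nGFP* mice, 1 library each in the table used here, although the design text speaks of triplicates. Groups came from the source names of the samples. Non-HC columns were assigned to the ENSC sample of their organ, and 0 columns were left unused. Every deposited value is a normalized signal of 1 gene in 1 library. The authors used only the first 50 nt of each read, aligned with TopHat to mm9, counted with HTSeq over ENSEMBL genes, applied quantile normalization and raised low values to 20. Versions, strand setting and the treatment of reads with several matches are not given in the sources used here. Quantile normalization hides depth and whole-library shifts, and a floor understates ratios of low genes.

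Ratios of 2 libraries were taken on the log2 scale without a pseudocount, and genes past 3-fold in either direction were counted. With 1 library per group no test was run, so that counts and medians stand beside those over all genes. Exonic length, GC content and positions came from the GENCODE annotation of NCBIM37, which is mm9 (12799 of 12814 identifiers matched). GC trends were fitted by local regression (statsmodels 0.14.6, 0.3 of the genes, 2 robust iterations) on genes above the floor in both libraries. This step was tested on simulated data with known shifts. The 50-base stretches of each gene's longest protein-coding transcript, or of its merged exons where none was listed, were searched in the genome on both strands. Of the 85 genes, 25 had at least 10% of them elsewhere and 40 none. Exons outside that transcript were not searched. Exon overlap with other genes was counted on both strands, and reached 10% for 7 genes. Python 3.11.15, pandas 2.3.3, numpy 2.4.6 and numba 0.67.0 were used.

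The genes and lists were chosen with earlier results of these data known. Named were genes at least 3-fold apart in any contrast, the highest and lowest HC to ENSC ratio of each complex in each organ, core catalytic subunits and isoform groups. Some genes of the surrounding lists, and genes that differed only after a trend was removed, were named after their values were seen. Alternatives were floors of 50 and 100, pseudocounts of 20 and 100, thresholds of 2 and 5, genes with a signal of at least 100, centring on genes above the floor, trends fitted on protein-coding genes or without the 85 genes, removal of GC, length and level trends, medians of 20 GC bins, tied ranges raised to their top and structural subunits alone. Values of 1 gene that the rule names are not reported here.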

Additional observations from a re-analysis of the deposited data

Results flagged for a closer look

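In 4 OXPHOS genes the HC to ENSC log2 ratios of the 2 organs pointed in opposite directions, at least 1.5-fold each (4.71% of the 85, near the 5.16% of all genes). With 1 library per population the differences between organs were not tested. *Cyc1*, the cytochrome c1 of complex III, had 0.75 in the cochlea but -1.37 in the vestibular system, and *Cox5a* of complex IV had 1 and -0.58. *Ndufb3* had -1.04 and 0.82, and *Ndufc2* -0.79 and 0.70, both of them accessory subunits of complex I. With the GC trend removed the vestibular values were -0.19 for *Cyc1*, -0.21 for *Cox5a*, 0.53 for *Ndufb3* and 0.66 for *Ndufc2*.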

How the results depend on the processing

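The median log2 ratios of the 85 genes in the 4 contrasts moved by less than 1.5-fold under each alternative run, the vestibular one ranging from -0.37 to 0.10 and so lying on both sides of 0, and the counts past 3-fold kept within 1.5 times under centring, structural subunits alone and genes with a signal of at least 100. The counts that moved further are given here. For vestibular HCs against ENSCs, the higher genes numbered 5 with a floor of 100, 4 with a pseudocount of 100, 14 with length and GC trends removed, 18 at 2-fold and 2 at 5-fold. The lower ones numbered 6 with a floor of 50 or a pseudocount of 20, 4 with a floor of 100, 3 with a pseudocount of 100, 5 with GC bins, 4 with each local GC trend (with length, with length and level, without the 85 genes and on protein-coding genes too), 19 at 2-fold and 3 at 5-fold. For cochlear HCs against ENSCs, 0 were higher with a pseudocount of 100 or at 5-fold, 2 with length and GC (and level) trends removed, and at 2-fold 7 were higher and 5 lower. For cochlear against vestibular ENSCs, 3 were higher with a floor of 100, 2 with a pseudocount of 100, 15 at 2-fold and 3 at 5-fold, and 4 were lower with a floor of 100, 3 with a pseudocount of 100, 5 with each local GC trend, 20 at 2-fold and 5 at 5-fold. For cochlear against vestibular HCs, the higher genes numbered 1 with a floor of 50, a pseudocount of 20 or tied ranges at their top, 0 with a floor or pseudocount of 100, 6 at 2-fold and 1 at 5-fold, and the lower ones 3 with a floor of 50, a pseudocount of 20 or length and GC (and level) trends removed, 1 with a floor of 100, 0 with a pseudocount of 100, 9 at 2-fold and 1 at 5-fold. Raising the floor, adding a pseudocount and changing the threshold alter these counts by construction, and for the other settings the cause was not tested. The GC trend removal moved the vestibular median of all genes by 0.11 (log2).

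Chosen after seeing the data were 2 alternatives. Over the 60 genes with under 10% of shared stretches, 4 were higher in vestibular HCs (13.8% of all genes were), 4 higher in cochlear than vestibular ENSCs (7.8% of all genes), and 1 lower in cochlear than vestibular HCs (5.09% of all genes). With cochlear in place of vestibular ENSCs, 3 genes were lower in vestibular HCs. Of the 21 genes at least 3-fold apart in the vestibular system, *Atp5b* (0.040), *Atp5d* (0.21), *Ndufa11* (0.67) and *Ndufaf4* (-0.28) changed sign. The value of *Ndufs8* (0.20) divides signals that are both in tied ranges and has no direction. Genes outside these 21 changed sign too, such as *Cox5a* (-0.58 to 1.89) and *Ndufb3* (0.82 to -1.44). A fit of cell type with organ as a block, which would leave 1 residual degree of freedom, was not run, and with 1 library in each group no replicate could be left out. The depth behind the signals is unknown, and signals within a tied range cannot be told apart from the floor.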
